A study of Mus musculus with 16 samples.

Results

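The 36 genes described here are a list of macrophage and myeloid cell genes, taken from the 18194 mouse genes that the array annotation names. They were picked by symbol for what they are known to do in macrophages, monocytes and related white blood cells, with earlier results of these data known, and the rule uses no measured value. They comprise the transcription factor Spi1, the growth factor receptor Csf1r, general leukocyte genes, macrophage surface and lysosome genes, integrins, chemokine receptors, Fc receptors, adaptors of the immunoreceptor tyrosine-based activation motif (ITAM), pattern recognition and scavenger receptors, and components of the phagocyte oxidase. Every one of the 36 had a probe set, 66 probe sets in all, and 35 were bright enough to test. The array carries Adgre1 under its older name Emr1 and Spi1 under Sfpi1.

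The study set kidneys of mice that lack aquaporin-11 (Aqp11-/-, knockout) against those of wild-type littermates (Aqp11+/+). Aqp11 encodes a water channel family member of the endoplasmic reticulum, which the proximal tubule of the kidney expresses. There were 9 knockout pups, 5 male and 4 female, and 7 wild-type pups, 3 male and 4 female, all 7 days old and labelled C57BL/6J. Each kidney's RNA went on an Affymetrix whole-genome mouse expression array of its own. The pups came from 5 mating pairs of heterozygotes, whose null allele was made in 129/SvEvBrd mice and then moved onto C57/BL6 by repeated back-crossing. The allele is carried by the whole animal, with no promoter or Cre named in the labels, so the white blood cells of a knockout pup lack the gene as well as its tubules.

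Macrophages are phagocytes that settle in the kidney before birth and are replenished by blood monocytes. They depend on the transcription factor PU.1, which Spi1 encodes, and on the growth factors CSF1 and IL-34, both of which signal through the receptor that Csf1r encodes. They take up immune complexes through Fc receptors, microbial and cell debris through lectins and scavenger receptors, and digest it in lysosomes. Monocytes enter tissue along chemokines that bind CCR2. After tubular injury, kidney macrophages are known to increase in number and to change their gene expression.

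No difference between genotypes in array quality passed the tests run. The trimmed mean signal was 169 ± 44.9 (SD, n = 9) on knockout arrays and 165 ± 33.4 (SD, n = 7) on wild-type arrays (exact permutation p = 0.931, two-sided, on the log2 scale). The log2 ratio of the 3' to the 5' probe sets, a sign of RNA integrity, was -0.32 ± 0.12 in knockout and -0.34 ± 0.09 in wild type for Gapdh (exact permutation p = 0.753, n = 9 and n = 7). Aqp11 itself lay at 2.95 ± 0.33 (SD, n = 9) on the log2 scale in knockout kidneys, where 7 of 9 arrays were at the floor set on low signal, against 7.87 ± 0.16 (SD, n = 7) in wild-type kidneys. All values below are log2 of quantile-normalised signal unless a fold is named, with a floor at 2.78. The number of animals limits the precision. Levels are compared between genotypes for a given probe set and not between probe sets. The exceptions are the pairs of genes and the marker sums below, which combine probe sets. The macrophage genes Adgre1, Cd68 and Csf1r lay above the floor on all 16 arrays.

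Since nearly all of the genes rose, the DNA around their transcription starts was read for the letters that PU.1 is known to bind. RefSeq windows of the GRCm38.p6 build, 250 bases before to 50 bases after an annotated start, were at hand for 26 of the 36 genes, 31 windows in all, since some genes have more than 1 start. The PU.1 core GAGGAA, searched on both strands, stood in 16 of the 31 windows (51.6%), against 28.3% of the 32851 windows of all mouse genes. Counted by gene, it stood in 14 of the 26, a count for which no share over all mouse genes is at hand. The 2 windows of Clec7a overlap almost fully, as do the 2 of Fcgr3, so window counts take the same letters more than once. Its longer form GAGGAAGT stood in 2 windows (6.5%, against 3.2% of all windows), those of Cd53 and Ctss, and contains the core. A composite of an ETS and an IRF site, GGAA and GAAA with any 2 bases between them, stood in 5 windows (16.1%, against 2.72% of all), from Cd68, Clec7a, Cybb and Fcgr2b, and can overlap the core. The AP-1 letters TGANTCA stood in 6 windows (19.4%, against 7.81% of all), from Cd68, Cybb, Gpnmb, Itgax, Ms4a7 and Trem2. These counts describe letters in a window and say nothing of binding. The windows of 4 genes are given, Itgam and Mrc1 since they hold 3 cores each, Ctss for the longer form, and Clec7a for the composite and as the gene that rose the most. Each is written 5' to 3' in the direction of transcription, with capitals marking the core or its reverse complement TTCCTC.
Itgam, chr7:128062390-128062689, plus strand: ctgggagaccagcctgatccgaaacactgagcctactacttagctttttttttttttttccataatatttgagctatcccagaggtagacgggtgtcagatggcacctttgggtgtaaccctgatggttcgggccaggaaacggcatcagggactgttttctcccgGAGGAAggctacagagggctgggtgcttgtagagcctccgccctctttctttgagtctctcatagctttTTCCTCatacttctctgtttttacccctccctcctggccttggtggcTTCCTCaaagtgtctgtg
Mrc1, chr2:14229164-14229463, plus strand: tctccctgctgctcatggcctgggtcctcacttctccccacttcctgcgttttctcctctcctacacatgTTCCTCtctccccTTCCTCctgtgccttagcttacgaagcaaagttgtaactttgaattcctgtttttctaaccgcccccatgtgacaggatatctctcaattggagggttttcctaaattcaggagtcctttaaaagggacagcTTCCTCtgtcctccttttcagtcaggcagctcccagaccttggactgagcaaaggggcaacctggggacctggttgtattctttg
Ctss, chr3:95526536-95526835, plus strand: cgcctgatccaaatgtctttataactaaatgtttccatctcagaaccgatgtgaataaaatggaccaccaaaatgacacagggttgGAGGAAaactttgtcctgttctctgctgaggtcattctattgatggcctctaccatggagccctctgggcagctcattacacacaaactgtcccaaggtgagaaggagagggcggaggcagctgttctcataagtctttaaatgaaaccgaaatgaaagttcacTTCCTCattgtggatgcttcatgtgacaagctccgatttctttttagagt
Clec7a, chr6:129472730-129473029, minus strand: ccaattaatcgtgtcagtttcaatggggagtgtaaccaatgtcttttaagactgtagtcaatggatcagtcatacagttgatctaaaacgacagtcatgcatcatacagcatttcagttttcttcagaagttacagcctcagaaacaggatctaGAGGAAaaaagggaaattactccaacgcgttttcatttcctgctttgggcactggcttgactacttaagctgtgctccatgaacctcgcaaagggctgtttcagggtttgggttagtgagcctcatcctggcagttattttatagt

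Macrophage and myeloid genes were higher in knockout kidneys almost without exception. Of the 35 tested, 34 rose, none fell and Ptprc missed the threshold (limma, adjusted p under 0.05 over all 12500 genes tested). The filter on dim genes could be passed on knockout arrays alone. With no such filter 32 genes of the list rose and 0 fell. Of all genes tested, 9.37% rose and 8.35% fell. The median log2 change of the 35 genes was 1.36, with a range of 0.51 to 2.37, while the median over all genes was 0.00. The rise was at least 2-fold for 29 of them, against 1.65% of all genes, and the adjusted p of the 34 ran between 2.17e-09 and 0.0183. Every knockout array lay above every wild-type array for 22 of the 35, against 2.91% of all genes. In RNA of a whole organ, more cells of a type and more RNA per cell cannot be told apart.

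**Figure D1:**
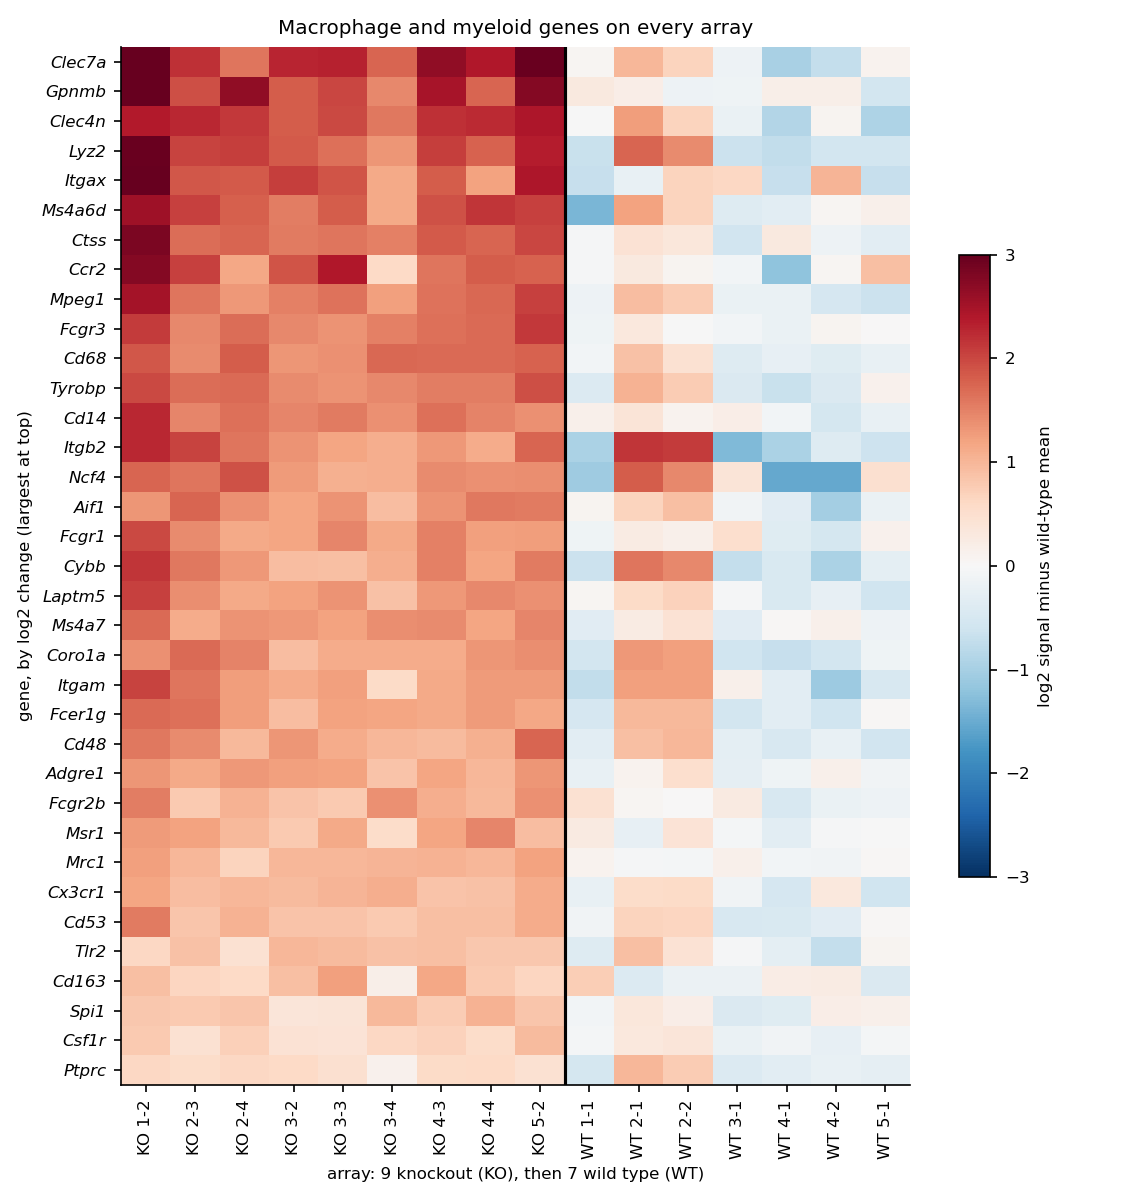
Log2 signal of each of the 35 tested genes (rows, by size of change) on each of the 16 arrays (columns), coloured by its difference from the gene's wild-type mean. Knockout columns (KO) are red for nearly all genes, while the wild-type columns (WT) 2-1 and 2-2 are red for Itgb2, Ncf4, Lyz2 and Cybb and pale for Mrc1 and Gpnmb.

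Both genes that stand at the head of the macrophage lineage rose, by less than most of the list. Csf1r had log2 signals of 10.31 to 10.86 (median 10.52) on knockout arrays and 9.66 to 10.27 (median 9.85) on wild-type arrays. The groups did not overlap, and the rise was 1.54-fold (log2 0.62, SE 0.10, limma adjusted p = 8.15e-05). Spi1 ran between 5.57 and 6.25 (median 6.01) in knockout kidneys and between 4.79 and 5.55 (median 5.35) in wild-type kidneys. Its lowest knockout value lay just above its highest wild-type value, that of array 2-1, and the rise was 1.68-fold (limma adjusted p = 0.000826). The 2 growth factors that bind the CSF1 receptor rose as well. Csf1 averaged 7.34 ± 0.25 (SD, n = 9) in knockout and 6.45 ± 0.26 (SD, n = 7) in wild type, a 1.85-fold rise (limma adjusted p = 2.56e-05). Il34 averaged 6.70 ± 0.54 in knockout and 5.36 ± 0.26 in wild type, a 2.53-fold rise (limma adjusted p = 6.79e-05).

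Among the 5 genes that most white blood cells share, 4 rose, with a median log2 change of 1.25 over the 5. Laptm5, a lysosomal membrane protein gene of blood cells, ran between 7.53 and 8.71 (median 8.01) in knockout and between 6.07 and 7.35 (median 6.62) in wild type. The groups did not overlap, and the rise was 2.54-fold (limma adjusted p = 1.42e-05). Cd53, which encodes a leukocyte tetraspanin, ran between 7.74 and 8.51 (median 7.85) in knockout and between 6.47 and 7.62 (median 6.84) in wild type. Its groups did not overlap either, with a 1.98-fold rise (limma adjusted p = 0.000175). Cd48, a surface ligand of immune cells, rose 2.37-fold and Coro1a, which binds actin in white blood cells, rose 2.43-fold, both with wild-type arrays inside the knockout range.

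Ptprc, the gene of the pan-leukocyte phosphatase CD45, missed the threshold, a call that depended on the fit. It ran between 8.30 and 8.78 (median 8.73) on knockout arrays and between 7.63 and 9.16 (median 7.89) on wild-type arrays. The highest values of all 16 arrays were those of wild-type arrays 2-1 (9.16) and 2-2 (8.92), while the other 5 wild-type arrays ended at 7.93, below every knockout array. The log2 change was 0.51 ± 0.18 (SE, limma adjusted p = 0.0562). Without arrays 2-1 and 2-2 it was 0.87 (limma adjusted p = 9.29e-07), and leaving out 2-1 alone (adjusted p = 0.00238), 2-2 alone (0.0121) or knockout 3-4 alone (0.0419) also brought it past the threshold. So did sex as a term (log2 0.56, limma adjusted p = 0.0218) and array brightness as a block (0.55, limma adjusted p = 0.0364). With the first number of the array label as a block it passed too (0.56, limma adjusted p = 0.0116).

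All 8 genes of the macrophage surface and lysosome rose, with a median log2 change of 1.66. Adgre1 encodes the standard surface marker of mouse macrophages, an adhesion receptor. Its signals ran between 6.95 and 7.43 (median 7.30) in knockout and between 5.83 and 6.60 (median 5.99) in wild type, so that the groups stood apart by a clear gap. The rise was 2.25-fold (log2 1.17, SE 0.11, limma adjusted p = 1.9e-07). Cd68, a lysosomal glycoprotein gene of phagocytes, ran between 7.52 and 8.05 (median 7.90) in knockout and between 5.81 and 7.07 (median 5.97) in wild type, without overlap. It rose 3.09-fold (limma adjusted p = 2.53e-07).

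Ctss encodes cathepsin S, the protease that trims the invariant chain of MHC class II. Its signals were 9.34 to 10.67 (median 9.57) on knockout arrays and 7.26 to 8.27 (median 7.80) on wild-type arrays. No wild-type array came within 1 log2 unit of the knockout arrays, and the rise was 3.57-fold (limma adjusted p = 1.46e-07). Lyz2, the lysozyme gene of myeloid cells, ran between 9.60 and 11.23 (median 10.30) in knockout and between 7.53 and 10.01 (median 7.71) in wild type. Wild-type arrays 2-1 (10.01) and 2-2 (9.70) lay inside its knockout range, and the other 5 reached at most 7.71. It rose 4.03-fold (log2 2.01, SE 0.34, limma adjusted p = 0.000206).

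Mpeg1, which encodes the pore-forming perforin-2 of macrophages, rose 3.22-fold and Aif1, the gene of the actin-binding macrophage marker IBA1, rose 2.60-fold. Neither overlapped between groups. The membrane protein gene Ms4a7 lay at 7.52 to 8.11 (median 7.77) in knockout and 6.06 to 6.84 (median 6.45) in wild type. It rose 2.54-fold without overlap (limma adjusted p = 4.75e-08). Its relative Ms4a6d rose 3.70-fold (limma adjusted p = 5.61e-05), and wild-type array 2-1 (5.55) reached into its knockout range of 5.47 to 6.88.

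All 3 integrin genes rose, and they differed in how far the wild-type arrays scattered. Itgb2 encodes CD18, the beta chain that pairs with the alpha chains of Itgam (CD11b) and Itgax (CD11c). Itgb2 ran between 6.51 and 7.69 (median 6.76) in knockout and between 4.09 and 7.56 (median 4.80) in wild type. Wild-type arrays 2-1 (7.56) and 2-2 (7.52) exceeded the knockout median, and the other 5 ended at 5.05. The rise was 2.86-fold with a wide error (log2 1.52, SE 0.43, limma adjusted p = 0.0179). It did not pass with no filter on dim genes (limma adjusted p = 0.0561) or with array weights (log2 1.23, limma adjusted p = 0.0639).

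Itgam was dim. It ran between 4.45 and 5.89 (median 5.13) in knockout and between 2.78 and 5.11 (median 3.57) in wild type, where 1 array was at the floor. Both wild-type arrays numbered 2 lay inside its knockout range, and the rise was at least 2.43-fold (limma adjusted p = 0.00675). Itgax ran between 4.61 and 6.93 (median 5.35) in knockout and between 2.78 and 4.51 (median 3.25) in wild type, with 3 wild-type arrays at the floor. Its groups did not overlap, and the rise was at least 3.90-fold (limma adjusted p = 0.000236). For Itgax the 2 arrays numbered 2 did not stand out, with 3.25 and 4.14. Icam1, which encodes a ligand of the integrin formed by Itgam and Itgb2, rose 1.94-fold (limma adjusted p = 1.35e-05).

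The 2 chemokine receptor genes rose by different amounts. Ccr2, the receptor that marks inflammatory monocytes, ran between 4.59 and 6.74 (median 5.82) in knockout and between 2.78 and 4.90 (median 4.06) in wild type. Its lowest knockout array, 3-4, lay below its highest wild-type array, 5-1, and 1 wild-type array was at the floor. The rise was at least 3.43-fold (limma adjusted p = 0.000173). Cx3cr1, the receptor of fractalkine on resident macrophages, ran between 7.21 and 7.54 (median 7.35) in knockout and between 5.76 and 6.93 (median 6.24) in wild type. The knockout arrays lay close together, none overlapped a wild-type array, and the rise was 2.00-fold (limma adjusted p = 6.79e-05).

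The tested ligands of these receptors were higher in knockout kidneys too. Ccl2, the main ligand of CCR2, averaged 6.39 ± 0.39 (SD, n = 9) in knockout and 3.51 ± 0.85 (SD, n = 7) in wild type, where 3 arrays were at the floor. That is a rise of at least 7.35-fold (limma adjusted p = 4.45e-07). Ccl12, another ligand of mouse CCR2, rose 3.56-fold and Cx3cl1, the fractalkine gene, rose 2.43-fold. Together with Csf1, Il34 and Icam1, all 6 tested ligand genes of the listed receptors rose, with a median log2 change of 1.31. Ccl7 and Ccl8 were too dim to test.

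The 3 Fc receptor genes rose without overlap between groups. Fcgr3, which encodes an activating low-affinity receptor for IgG, had the smallest adjusted p of the list. It ran between 7.64 and 8.41 (median 7.93) in knockout and between 6.09 and 6.60 (median 6.27) in wild type, with little scatter in either. The rise was 3.17-fold (log2 1.67, SE 0.12, limma adjusted p = 2.17e-09). Fcgr1, the high-affinity receptor gene, ran between 6.13 and 6.98 (median 6.26) in knockout and between 4.47 and 5.49 (median 5.13) in wild type, a 2.58-fold rise (limma adjusted p = 2.84e-06). Fcgr2b, the gene of the inhibitory IgG receptor, ran between 7.92 and 8.67 (median 8.19) in knockout and between 6.67 and 7.60 (median 7.16) in wild type. It rose 2.13-fold (limma adjusted p = 5.43e-06). Fcgr2b and Fcgr3 are related in sequence, and the Fcgr2b probe set is of a kind whose probes can match more than 1 transcript.

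Fcer1g and Tyrobp encode the ITAM adaptors that carry the signals of activating Fc receptors and of TREM2 and related receptors. Tyrobp ran between 8.46 and 9.09 (median 8.64) in knockout and between 6.43 and 8.14 (median 6.69) in wild type, without overlap. It rose 3.07-fold (limma adjusted p = 8.39e-06). Fcer1g ran between 7.73 and 8.48 (median 7.99) in knockout and between 6.19 and 7.77 (median 6.47) in wild type, with both wild-type arrays numbered 2 at the lower edge of the knockout range. It rose 2.42-fold (limma adjusted p = 0.000207). Trem2, a lipid-sensing receptor gene of macrophages, was too dim to test. Its signal was 2.78 to 5.86 (median 4.96) in knockout, with 3 of 9 arrays at the floor, and 2.78 to 4.30 in wild type, with 5 of 7 arrays at the floor.

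Pattern recognition receptors held 2 of the 3 largest changes of the list. Clec7a encodes dectin-1, a lectin for fungal glucans. It ran between 6.90 and 8.49 (median 7.61) in knockout and between 4.34 and 6.29 (median 5.36) in wild type. All knockout arrays lay above all wild-type arrays, and the rise was 5.19-fold (log2 2.37, SE 0.26, limma adjusted p = 1.35e-06). Clec4n, the gene of the related lectin dectin-2, ran between 6.92 and 7.79 (median 7.55) in knockout and between 4.44 and 6.61 (median 5.33) in wild type. It rose 4.31-fold without overlap (limma adjusted p = 2.78e-06).

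Cd14 encodes the co-receptor for bacterial lipopolysaccharide. It ran between 7.39 and 8.27 (median 7.52) in knockout and between 5.49 and 6.39 (median 6.13) in wild type and did not overlap between groups. It rose 3.00-fold (limma adjusted p = 4.33e-08). Tlr2, a receptor gene for bacterial lipoproteins, rose 1.76-fold (limma adjusted p = 0.00195). Its knockout arrays ran between 6.54 and 7.07, and wild-type array 2-1 (6.99) lay among them while the other wild-type arrays did not.

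The scavenger receptors and the glycoprotein gene Gpnmb all rose, and Gpnmb rose far more than the others. Gpnmb encodes a membrane glycoprotein of phagocytes loaded with lipid or debris. It ran between 5.62 and 8.74 (median 6.18) in knockout and between 3.64 and 4.48 (median 4.35) in wild type. Knockout array 1-2 alone reached 8.74, the others ended at 6.94, and no wild-type array came near them. The rise was 5.18-fold (log2 2.37, SE 0.32, limma adjusted p = 2.06e-05).

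Mrc1, which encodes the mannose receptor CD206, scattered least. It ran between 8.08 and 8.63 (median 8.41) in knockout and between 7.30 and 7.57 (median 7.36) in wild type, a 2.02-fold rise (log2 1.02, SE 0.08, limma adjusted p = 7.1e-09). Msr1, the class A scavenger receptor gene, ran between 4.83 and 5.75 (median 5.43) in knockout and between 3.98 and 4.69 (median 4.25) in wild type, a 2.09-fold rise (limma adjusted p = 0.000133). Neither overlapped between groups. Cd163, the haemoglobin scavenger receptor gene, lay low, at 4.21 to 5.28 (median 4.83) in knockout and 3.61 to 4.79 (median 3.86) in wild type. The groups overlapped, and the rise was 1.72-fold (limma adjusted p = 0.0149). It was the only rise of the 34 that no longer passed without wild-type arrays 2-1 and 2-2 (log2 0.66, limma adjusted p = 0.0684).

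Cybb and Ncf4 encode the catalytic subunit gp91phox and the p40phox regulator of the NADPH oxidase that makes superoxide in phagocytes. Cybb ran between 7.36 and 8.59 (median 7.76) in knockout and between 5.497 and 8.05 (median 5.99) in wild type. Wild-type arrays 2-1 (8.05) and 2-2 (7.90) lay above its knockout median and the other 5 ended at 6.16, below every knockout array. The rise was 2.56-fold (limma adjusted p = 0.00511). Ncf4 ran between 5.38 and 6.23 (median 5.71) in knockout and between 2.78 and 6.13 (median 4.70) in wild type, where 2 arrays were at the floor and the same pair reached 6.13 and 5.77. Its rise was at least 2.69-fold (limma adjusted p = 0.0183), and did not pass with no filter on dim genes (limma adjusted p = 0.0518).

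**Figure D2:**
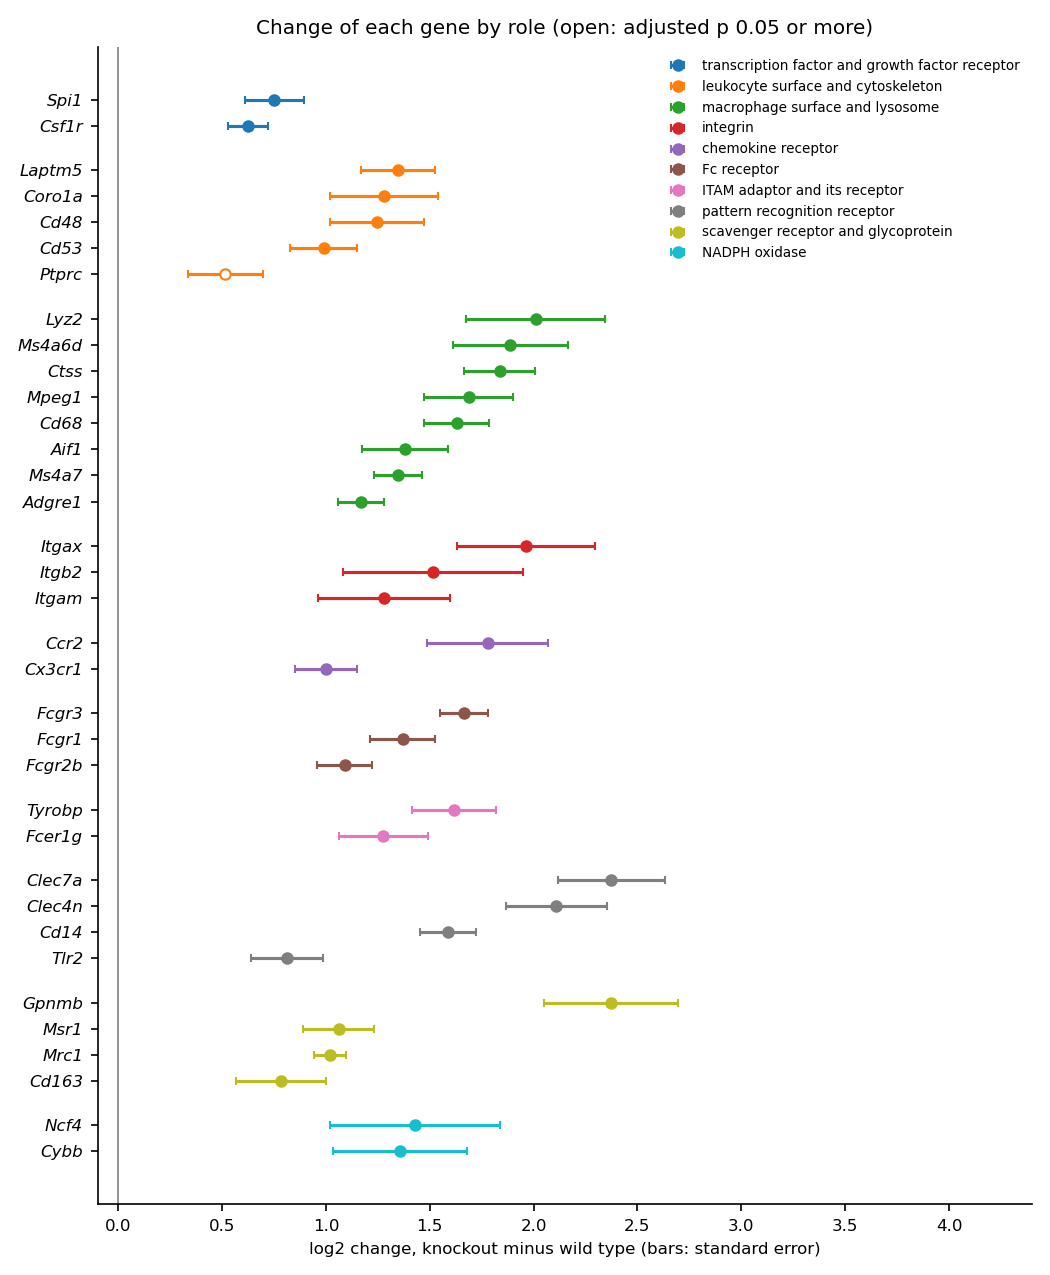
Log2 change of each tested gene, knockout minus wild type, grouped by role, with bars of 1 standard error. All 35 changes are above 0, and the single open circle is Ptprc, at 0.51.

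Opposed or partnered receptors were set against each other within each array, as the difference between 2 genes' log2 signals, in 7 pairs with p adjusted over the 7. Since probe sets differ in brightness, the difference is given relative to its wild-type mean. Activating Fcgr3 rose more than inhibitory Fcgr2b. The difference was 0.15 to 0.76 (median 0.59) on knockout arrays and -0.58 to 0.28 (median 0.17) on wild-type arrays, with 8 of 9 knockout arrays above all wild-type arrays. The mean difference between genotypes was 0.58 (exact permutation p = 0.000437, adjusted 0.00153, two-sided, n = 9 and n = 7). Gpnmb rose more than Adgre1, with 0.59 to 3.24 (median 0.80) on knockout arrays and -0.65 to 0.53 (median 0.09) on wild-type arrays. All 9 knockout arrays lay above all wild-type arrays, and the genotypes differed by 1.20 (exact permutation p = 0.00035, adjusted 0.00153). Knockout array 1-2 held the 3.24, and leaving out any 1 array gave 0.95 to 1.29. With no floor, as log2 of signal plus 16, the difference was 0.70 (adjusted p = 0.0167, exact permutation).

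The other 5 pairs did not pass. Ccr2 rose by 0.78 more than Cx3cr1 in the mean, with a difference of -0.49 to 1.56 on knockout arrays and -0.70 to 1.497 on wild-type arrays (exact permutation p = 0.0389, adjusted 0.0908). It passed without knockout array 3-4 (0.94, adjusted p = 0.0243, exact permutation) and without wild-type array 5-1 (1.03, adjusted p = 0.0121, exact permutation), while with no floor, as log2 of signal plus 16, it was 0.31 (adjusted p = 0.259, exact permutation). Itgax minus Itgam gave 0.68 (adjusted p = 0.198, exact permutation), and passed without wild-type array 4-2 (1.04, adjusted p = 0.00466), while without wild-type arrays 2-1 and 2-2 it was 0.28 (adjusted p = 0.624). Both of these pairs include arrays at the floor. Cd163 minus Mrc1 gave -0.24 (adjusted p = 0.331, exact permutation). Msr1 minus Mrc1 gave 0.04 and Cybb minus Ncf4 gave -0.07, each with an adjusted p of 0.802 by exact permutation.

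The level of the list as a whole differed between arrays of the same genotype. As a summary for an array, the median over the 35 genes of log2 signal minus the wild-type mean was 1.08 to 1.85 on knockout arrays (mean 1.35 ± 0.22, SD, n = 9) and -0.34 to 0.67 on wild-type arrays (mean 0.04 ± 0.43, SD, n = 7). Wild-type arrays 2-1 and 2-2, both from females, stood at 0.67 and 0.64, while the other 5 lay between -0.34 and -0.12. Among knockout arrays 1-2 was the highest, at 1.85, and held the top value for 22 of the 35 genes. Array 3-4 was the lowest, at 1.08, and held the bottom value for 17. Labels number the arrays in 5 sets without saying what the first number stands for. Within each first number the knockout mean exceeded the wild-type mean, by 1.98 for number 1, 0.73 for 2, 1.37 for 3, 1.61 for 4 and 1.55 for 5, with a single array of each genotype in numbers 1 and 5.

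**Figure D3:**
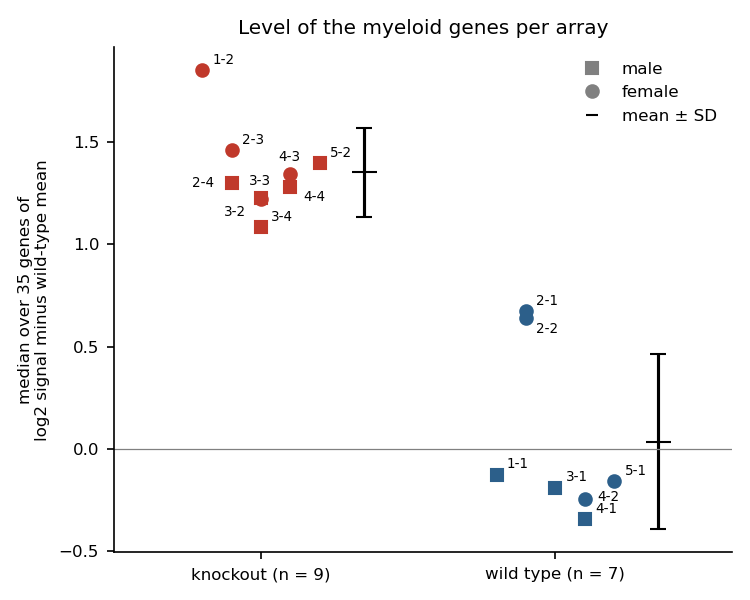
Median over the 35 genes of log2 signal minus the gene's wild-type mean, for each of the 9 knockout and 7 wild-type arrays, with array numbers, sex by symbol, and mean ± SD at the right of each group. Knockout arrays lie between 1.08 and 1.85, wild-type arrays 2-1 and 2-2 at 0.67 and 0.64, and the other 5 wild-type arrays below 0.

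Wild-type arrays 2-1 and 2-2 were raised for some of the genes and not for others. Both lay above all other wild-type arrays for 24 of the 35 genes, and by at least 1 log2 unit over the mean of the other 5 for 15. For the counts in this paragraph the shares over all genes were not computed. Either of them reached the knockout range for 11 genes, and both did so for 8, Itgb2, Ncf4, Lyz2, Cybb, Coro1a, Itgam, Fcer1g and Ptprc. Their mean exceeded that of the other 5 by 2.96 for Itgb2, 2.29 for Ncf4, 2.21 for Lyz2 and 2.14 for Cybb. For Gpnmb the same difference was 0.03, for Fcgr2b 0.06, for Msr1 0.11 and for Fcgr3 0.22. It was below 0 for Mrc1 (-0.07) and Cd163 (-0.41). Set against the other 5 wild-type arrays alone, 33 of the 35 genes had no overlap, the exceptions being Ccr2 and Cd163. Leaving arrays out can only raise such a count. Without the pair the median log2 change of the list was 1.70, against 1.36 with it.

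**Figure D4:**
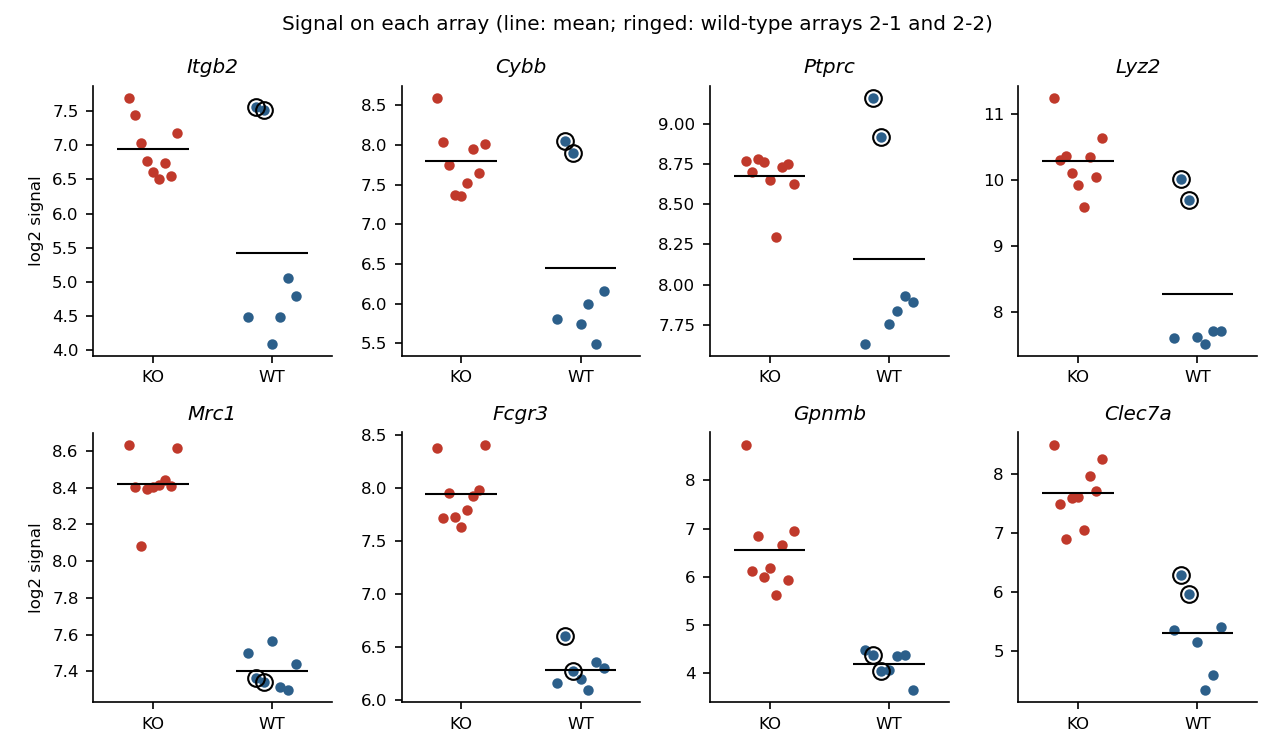
Log2 signal of 8 of the genes on each knockout (KO, n = 9) and wild-type (WT, n = 7) array, with the group mean as a line and wild-type arrays 2-1 and 2-2 ringed. In the upper row (Itgb2, Cybb, Ptprc, Lyz2) the ringed arrays lie in or above the knockout range, and in the lower row (Mrc1, Fcgr3, Gpnmb, Clec7a) they lie below it.

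Other genes of white blood cells were high on the same pair of arrays. Il1b, an inflammatory cytokine gene, stood at 4.52 to 6.20 (median 5.28) on knockout arrays, at 7.11 and 6.33 on wild-type arrays 2-1 and 2-2, and at 3.69 to 5.03 on the other 5. S100a8, a calcium-binding protein gene abundant in neutrophils and monocytes, stood at 6.76 to 8.19 on knockout arrays, at 7.18 and 6.94 on the pair and at 4.87 to 6.13 on the other 5. Plek, Csf3r and S100a9 showed the pair above all other wild-type arrays as well. These 5 genes were named after their values were seen.

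The rise was seen in both sexes. The list's median summary was 1.26 in knockout males (1.08 to 1.40, n = 5) and -0.22 in wild-type males (-0.34 to -0.12, n = 3), a difference of 1.48. In females it was 1.47 in knockout (1.22 to 1.85, n = 4) and 0.23 in wild type (-0.25 to 0.67, n = 4), a difference of 1.24. The 4 wild-type females include arrays 2-1 and 2-2. Each of the 35 genes was higher in knockout in both sexes, and the change was larger in males for 25. No member and no other gene had an interaction of sex and genotype past the threshold in limma. At an unadjusted p under 0.05 there were 5 members, Itgb2, Tyrobp, Ms4a6d, Spi1 and Coro1a, all with the larger change in males, against 10.8% of all genes. The smallest adjusted p among members was 0.455 (limma).

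Splitting the arrays by overall brightness gave the rise on both sides of the split, 1.44 against 0.25 on the brighter arrays and 1.28 against -0.25 on the dimmer arrays, in knockout and in wild type. Most further probe sets of the genes moved the same way. Beside the 36 probe sets used there were 30 others, from 16 of the genes, and 18 of these were bright enough to test. Of the 18, 16 rose, none fell, and 1 each of Cybb (limma adjusted p = 0.0688) and Laptm5 (limma adjusted p = 0.365) did not pass. Coro1a, Itgam, Itgax and Tyrobp lie on chromosome 7, as Aqp11 does, with 191 to 284 tested genes between each of them and Aqp11.

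A second list of 50 myeloid genes that are not among the 36 moved the same way less uniformly. Of its 40 tested genes 28 rose, 2 fell and 10 did not pass, with a median log2 change of 0.86. Ly86, the partner of a Toll-like receptor relative on myeloid and B cells, averaged 7.88 ± 0.26 (SD, n = 9) in knockout and 6.34 ± 0.18 (SD, n = 7) in wild type, a 2.91-fold rise (limma adjusted p = 5.62e-09). Lgals3, the galectin-3 gene, averaged 11.38 ± 0.18 in knockout and 10.13 ± 0.24 in wild type and rose 2.37-fold (limma adjusted p = 8.86e-09). Cd44, the hyaluronan receptor gene, rose 3.84-fold and Runx1, a transcription factor gene of blood cells, rose 3.82-fold. Lgals3 and Cd44 are also expressed by injured tubule cells, so neither is particular to white blood cells. The 2 that fell were Cyba (1.17-fold), whose product pairs with that of Cybb, and Mertk (1.17-fold), a receptor for the uptake of dying cells.

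Gene sets of macrophage activation were only partly measurable. Of 10 genes of classical activation 5 were tested and 2 rose, Cxcl10 (2.63-fold, limma adjusted p = 6.59e-05) and Cd86 (at least 2.20-fold, limma adjusted p = 0.0134). Nos2 was at the floor on all 9 knockout arrays and on 6 of 7 wild-type arrays. Of 11 genes of alternative activation 3 were tested and all 3 rose, namely Mrc1, Cd163 and Clec10a (1.92-fold, limma adjusted p = 0.00777). Mrc1 and Cd163 are themselves members of the main myeloid list and were counted there, so only Clec10a adds to that count. Arg1, Chil3 and Retnla were too dim to test, at the floor on 1, 6 and 7 of 9 knockout arrays and on 4, 7 and 6 of 7 wild-type arrays. Of 14 genes for handling lipid and debris 11 were tested, 8 rose and 3 did not pass. Their median log2 change was 0.36. Mmp12, the macrophage elastase gene, averaged 6.64 ± 0.99 (SD, n = 9) in knockout and 2.97 ± 0.35 (SD, n = 7) in wild type, where 4 arrays were at the floor. Among the rest were Gpnmb, itself a member of the main list, and Lgals3, and Ctsd, the cathepsin D gene. Ctsd rose 1.28-fold (limma adjusted p = 0.00012).

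Markers of other blood cells moved in part with the 36 genes. Of 14 neutrophil markers 4 were tested and 2 rose, S100a8 (2.44-fold, limma adjusted p = 0.00446) and S100a9 (1.69-fold, limma adjusted p = 0.0252). Ngp (log2 0.35, limma adjusted p = 0.45) and Csf3r (0.79, limma adjusted p = 0.147) did not pass. The summed signal over all measured neutrophil markers was 353 to 572 in knockout and 173 to 481 in wild type. Wild-type arrays 2-1 and 2-2 stood at 481 and 375. The granule genes Mpo and Elane were too dim to test, at the floor on 4 and 6 of 9 knockout arrays and on 4 and 3 of 7 wild-type arrays. Of 8 monocyte markers 4 were tested and 3 rose, Plac8 (1.75-fold), F13a1 (2.20-fold) and Ccr2, which is itself one of the 36. Itga4 did not pass (log2 0.01, limma adjusted p = 0.973). The summed signal of the monocyte markers was 1613 to 2127 in knockout and 940 to 1303 in wild type. Of 10 dendritic cell markers 4 were tested and 2 rose, Batf3 and Clec10a, the latter also counted above under alternative activation. Zbtb46 (log2 -0.13, limma adjusted p = 0.659) and Itgae (0.65, limma adjusted p = 0.133) did not pass, and Flt3 and Xcr1 were too dim to test. The sums of the dendritic cell markers were 353 to 478 in knockout and 254 to 397 in wild type. Of 6 platelet markers 3 were tested. Pf4 rose 1.72-fold, while Itga2b (log2 0.07, limma adjusted p = 0.815) and Gp1bb (0.42, limma adjusted p = 0.399) did not pass. The sums of the platelet markers were 407 to 605 in knockout and 288 to 371 in wild type. The sums here and below add linear signal over probe sets, so the brightest genes weigh most. Plac8 (mean log2 10.49 in knockout) carried most of the monocyte sum and Pf4 (8.37) most of the platelet sum. Such a range therefore does not describe every gene of its list. The part of these cells in the rise of the 36 genes was not tested.

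Lymphocyte, mast cell and red cell markers did not pass in either direction. The counts of tested genes were 2 of 10 for T cells, 3 of 8 for B cells, 1 of 7 for natural killer cells, 2 of 7 for mast cells and 3 of 8 for red cells. Summed signals overlapped between genotypes for each, for example 91 to 214 in knockout and 113 to 173 in wild type for T cells. Cd3e and Cd3d, which define T cells, were at the floor on 5 of 9 knockout arrays each and on 5 and 6 of 7 wild-type arrays. Of 7 tested genes of kidney tubule and glomerulus 4 fell, Slc34a1 (1.56-fold), Lrp2 (1.54-fold), Slc12a3 (1.29-fold) and Nphs1 (1.44-fold), and Aqp2 rose 1.87-fold. Their summed signal was 16410 to 20080 in knockout and 18300 to 22540 in wild type. The part of this difference in the rise of the 36 genes was not tested.

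**Figure D5:**
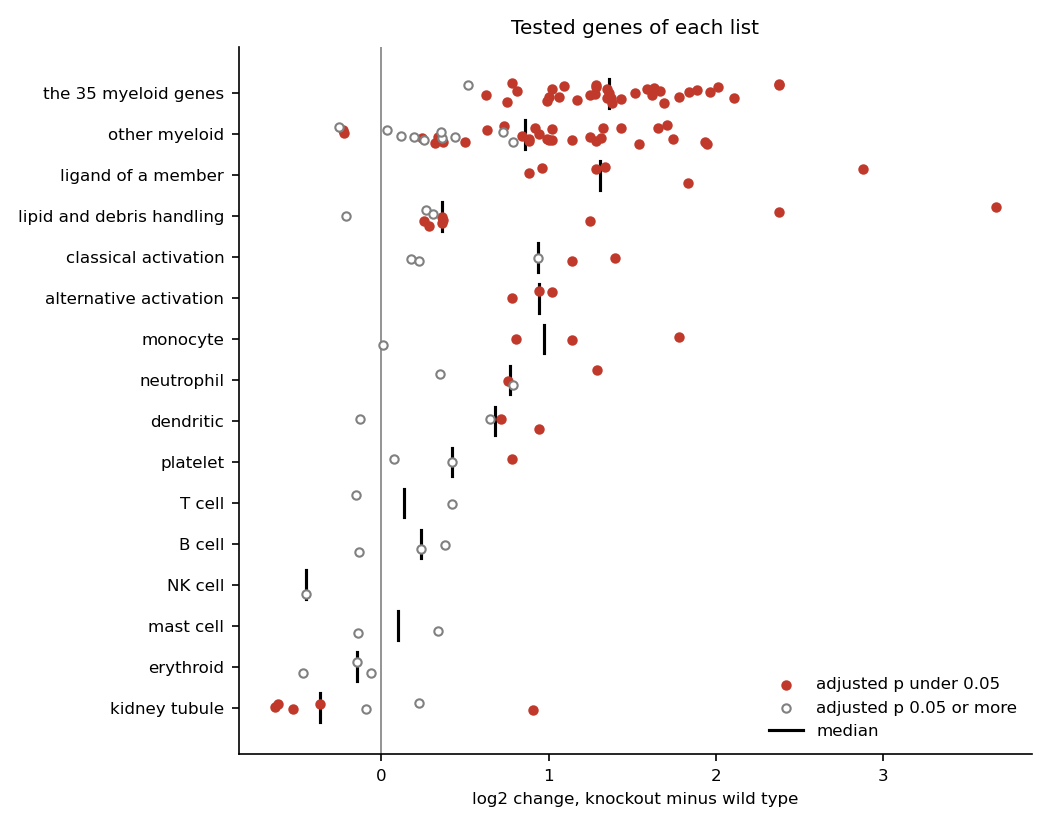
Log2 change, knockout minus wild type, of every tested gene of the 36 myeloid genes and of each other list, with filled points past an adjusted p of 0.05 and a black line at the list's median. The 35 tested myeloid genes have a median of 1.36, the second myeloid list 0.86 and the ligands 1.31, while no T, B, natural killer, mast or red cell gene is filled.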

How the data were processed

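RNA of 16 mouse kidneys was measured on arrays of 45101 probe sets, 1 array per animal. The authors deposited linear signal intensity, produced with GCOS 1.3 according to the submitters' processing notes. The sources used here do not say whether a scaling was applied. Trimmed means (2% off each end) differed up to 2.12-fold between arrays. The intensities were therefore quantile normalised, raised to the 20th percentile of all values where lower (a floor of 6.89, which is 2.78 on the log2 scale), and log-transformed. The floor makes changes of dim genes look smaller, so a fold is a lower bound where wild-type arrays lie at it. Quantile normalisation hides a change in total mRNA.

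Genes were named from the platform annotation, with current symbols from the RefSeq table. The brightest probe set that names 1 gene stood for the gene. Tested were the 12500 genes whose probe set exceeded the 40th percentile of the array on 7 arrays or more. These arrays could be of either genotype, so a gene could pass on knockout arrays alone. Mmp12, which reached at most 3.74 in wild type, is an example. A dim gene that rose could thus be tested where an equally dim gene that did not rise was left out. With no filter the median log2 change of the list was 1.35. The genotypes were compared in R 4.3.3 by limma 3.58.1 (linear model without covariates, moderated with a variance trend) and Benjamini-Hochberg adjustment over all genes. Pairs of genes and array quality were compared by exact two-sided permutation of the 11440 labellings of the arrays. The method was checked on simulated data.

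The members, their roles and the other lists were chosen with earlier results of these data known. Beyond the 36 genes, the text names Aqp11, tested ligands of member receptors, up to 4 genes with the smallest p of each list described, a marker list's first members where they were dim, and all genes of a count of 5 or fewer, such as those that fell. Alternatives changed the normalisation, floor, filter, probe set, variance model, sex term and replicate block, or left arrays out. Samples that shared a first number did not all deviate together (correlations 0.04, 0.13, -0.01, 0.16 and 0.32 for numbers 1 to 5). The numbers were therefore not taken to pair samples in the main fit, and served as a block in an alternative.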

Additional observations from a re-analysis of the deposited data

Results flagged for a closer look

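The 35 tested genes, Aqp11 and the median summary, in each genotype, made 74 sets of values. Of these, 9 held 1 array that stood apart from the rest of its group by Dixon's criterion. Chance gives about 1 in 20 for independent sets, but these sets share the same arrays and the summary is made from the genes. The criterion seeks a single array apart from its group, so 2 arrays that are high together can mask each other. Wild-type arrays 2-1 and 2-2 were such a pair for Itgb2 (7.56 and 7.52, the other 5 at most 5.05). The count of flags in wild type therefore cannot say that no wild-type array stood apart. All 9 were in knockout and 7 of them were the highest value on array 1-2. That array had 8.74 for Gpnmb (5.62 to 6.94 on the other knockout arrays), 10.67 for Ctss (9.34 to 9.83), 8.71 for Laptm5 (7.53 to 8.09) and 8.51 for Cd53 (7.74 to 8.05). It also had 8.27 for Cd14 (7.39 to 7.66) and 6.98 for Fcgr1 (6.129 to 6.495), and its median summary over the list was 1.85 (1.08 to 1.46). The remaining 2 were lowest values, 8.30 for Ptprc on array 3-4 (8.63 to 8.78 on the others) and 8.08 for Mrc1 on array 2-4 (8.39 to 8.63). With array 1-2 left out together with wild-type arrays 2-1 and 2-2, an alternative added after seeing the data, Ptprc passed (log2 0.85, limma adjusted p = 2.1e-06) and Cd163 did not (0.65, limma adjusted p = 0.0948).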

How the results depend on the processing

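All of the 1318 changes recomputed for single members under the alternatives were above 0, and 1268 kept the same call. Over all genes, the deposited scaling gave 284 higher and 154 lower, with 30 members higher and 8 members without overlap. The most variable probe set gave 764 genes higher and 642 lower, females alone 362 and 319, and brighter arrays alone 653 and 680. Dimmer arrays alone gave 707 and 476, and males alone 599 lower. Members higher were 19 in females alone and 22 on brighter arrays alone. Both of these sets hold wild-type arrays 2-1 and 2-2. Members without overlap were 34 in males alone, where fewer arrays can overlap. For none of these alternatives was the share of all genes without overlap computed. The median of the list was 1.73 on dimmer arrays and 1.70 without both wild-type arrays numbered 2. Fcgr3 minus Fcgr2b gave 0.78 in males and 0.43 in females, and Gpnmb minus Adgre1 gave 0.66 and 1.72, none past the threshold at these group sizes. Ccr2 minus Cx3cr1 passed with the most variable probe set (1.18), and Cd163 minus Mrc1 with no floor (-0.51). The causes were not tested.

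Leaving out 1 array gave 995 to 1191 genes higher, 863 to 1055 lower, 34 to 35 members higher, 0 lower, a median of 1.21 to 1.49 and 22 to 24 members without overlap, with 0 sex interactions among members. For the pairs it gave 0.48 to 0.63 for Fcgr3 minus Fcgr2b, 0.95 to 1.29 for Gpnmb minus Adgre1, 0.66 to 1.03 for Ccr2 minus Cx3cr1, 0.44 to 1.04 for Itgax minus Itgam, -0.32 to -0.13 for Cd163 minus Mrc1, -0.01 to 0.12 for Msr1 minus Mrc1 and -0.25 to 0.11 for Cybb minus Ncf4. With the first number as a replicate block, 1382 genes were higher and 1273 lower, 35 members were higher, Ptprc included (log2 0.56, limma adjusted p = 0.0116, or 0.00731 with sex as a further term), and the median was 1.39. Signals at the floor limit what can be said of Trem2, Itgam, Itgax, Ccr2 and Ncf4.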

Other observations

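Some genes of blood cells were too dim to test and differed in how many arrays lay at the floor. They were named after their values were seen. Ccl17, a chemokine gene of dendritic cells and macrophages, averaged 4.93 ± 0.72 (SD, n = 9) in knockout with 0 arrays at the floor, and 3.46 ± 0.78 (SD, n = 7) in wild type with 3 at the floor. Ccl22, which shares its receptor with Ccl17, averaged 4.39 ± 0.65 in knockout with 0 arrays at the floor and 2.90 ± 0.20 in wild type with 5 at the floor. Ccl7, another CCR2 ligand gene, averaged 4.07 ± 0.56 in knockout with 0 arrays at the floor and 2.94 ± 0.31 in wild type with 5 at the floor. Ppbp, a platelet chemokine gene, averaged 4.81 ± 0.58 in knockout and 3.43 ± 0.51 in wild type, with 0 and 2 arrays at the floor. Timd4, a receptor gene of resident macrophages for dying cells, was at the floor on 8 of 9 knockout arrays and 5 of 7 wild-type arrays.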
